A study of Mus musculus with 12 samples.

Results

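The guanylate-binding proteins (Gbp) are a family of large GTPases, and 9 of their mouse genes were followed here through the response of hematopoietic stem cells (HSCs) to estradiol (E2), the main estrogen. The family was picked because Gbp4 and Gbp11 rose with E2 on these arrays, and its members Gbp2, Gbp3, Gbp4, Gbp5, Gbp6, Gbp7, Gbp8, Gbp9 and Gbp11 were selected by gene symbol. Of the 9 members, 7 had a probe set of their own among the 35474 on the array. The other 2, Gbp2 and Gbp6, were measured only by probe sets shared with other Gbp genes. One shared probe set reads Gbp2 and Gbp2b, and the other reads 6 genes, Gbp4, Gbp6, Gbp8, Gbp9, Gbp10 and Gbp11. All 7 own probe sets passed the filter on dim genes, a mean intensity over the 12 arrays above 182, which left 9967 of 19935 genes for the tests.

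The study measured HSCs, the bone marrow cells that give rise to all blood lineages, on 12 Affymetrix Mouse Gene 1.0 ST arrays. The 4 groups were males given oil, males given E2, females given oil and females given E2, with 3 arrays per group, labelled as biological replicates from 3 mice. The mice were 2 to 3 months old, and each was injected under the skin with 100 µL of corn oil, alone or carrying 2 µg of estradiol. Lots of 5000 to 7000 cells were sorted through a gate for lineage- Sca-1+ c-kit+ cells that were CD48- and CD150+, and the RNA was amplified before labelling. Neither the strain nor how long E2 was given is stated in the labels used here. The median intensity of an array was between 143 and 159, and 3 arrays per group limit the precision of every value. Of 10 HSC marker genes, 8 had a probe set of their own and all 8 passed the filter. Among these, Kit read 1820.0 to 2756, Hlf 2399 to 3184 and Mecom 1041 to 1417 over the 12 arrays. In bulk RNA of sorted cells, fewer cells that express a gene and less RNA per cell cannot be told apart.

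Guanylate-binding proteins are made in many cell types when interferons, above all interferon gamma, signal, in part through the transcription factor IRF1. They bind and hydrolyse GTP, assemble into polymers, and coat the vacuoles and outer membranes of intracellular bacteria and parasites, which leads to membrane rupture, inflammasome activation and cell death. Some members, Gbp2 and Gbp5 among them, carry a C-terminal CaaX motif through which a lipid anchor is attached. In blood-forming cells, interferon gamma is known to draw HSCs out of rest.

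The mouse genes lie in 2 clusters. By the order of genes in the RefSeq table (assembly GRCm38.p6), those of chromosome 3 run Gbp5, Gbp7, Gbp3, Gbp2b and Gbp2, and those of chromosome 5 run Gbp8, Gbp9, Gbp4, Gbp10, Gbp6 and Gbp11. RefSeq lists Gbp11 as a transcribed pseudogene and the other members as protein coding. Promoters of 4 members, all of the chromosome 3 cluster, were matched in the RefSeq promoter table of GRCm38.p6. They are shown because the interferon-stimulated response element, the sequence through which interferon acts on this family, can be read in them. Each line gives the 250 bases before an annotated start, 5′ to 3′ on the plus strand, with matches to the core of that element (GAAANNGAAA, searched on both strands) in capitals.

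Gbp5, chr3:142496684-142496933: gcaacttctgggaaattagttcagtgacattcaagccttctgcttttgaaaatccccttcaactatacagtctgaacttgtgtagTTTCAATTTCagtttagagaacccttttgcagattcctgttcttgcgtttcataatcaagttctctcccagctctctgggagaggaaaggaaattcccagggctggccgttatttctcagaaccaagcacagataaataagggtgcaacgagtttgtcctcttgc

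Gbp7, chr3:142530086-142530335: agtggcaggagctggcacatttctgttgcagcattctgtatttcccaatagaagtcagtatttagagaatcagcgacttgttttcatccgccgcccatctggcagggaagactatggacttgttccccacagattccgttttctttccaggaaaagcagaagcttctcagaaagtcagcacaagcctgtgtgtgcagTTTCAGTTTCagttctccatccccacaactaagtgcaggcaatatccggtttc

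Gbp3, chr3:142559794-142560043: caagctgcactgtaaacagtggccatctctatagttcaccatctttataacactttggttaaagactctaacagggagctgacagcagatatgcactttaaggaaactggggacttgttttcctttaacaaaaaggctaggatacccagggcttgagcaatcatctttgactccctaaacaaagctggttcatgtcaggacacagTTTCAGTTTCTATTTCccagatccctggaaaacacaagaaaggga

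Gbp2, chr3:142620413-142620662: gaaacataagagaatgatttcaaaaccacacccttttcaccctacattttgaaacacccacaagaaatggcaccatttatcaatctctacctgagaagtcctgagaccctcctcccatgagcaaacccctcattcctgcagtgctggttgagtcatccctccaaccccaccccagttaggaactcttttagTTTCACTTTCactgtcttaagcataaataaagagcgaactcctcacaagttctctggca

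The core was present in each of these 4 promoters, on the minus strand, against 2.98% of all 32851 promoters of that length. It stood at bases -59 to -50 before the start of Gbp2, -53 to -44 in Gbp7 and -165 to -156 in Gbp5. Gbp3 carried 2 matches, -45 to -36 and -39 to -30, which overlap. A second annotated start of Gbp3 had 0 matches in its 250 bases. The short motif GGTCA, the core of estrogen response elements, searched on both strands, had 0 matches in the 4 windows, against 35.2% of all promoters with at least 1. A match describes the letters only.

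Gbp4 and Gbp11, on which the family was picked, were several times brighter on the E2 arrays than on the oil arrays of the same sex. Gbp4 read 222, 158 and 303 on the 3 arrays of oil-treated males and 1409, 867 and 1214 on those of E2-treated males. In females it read 344, 353 and 254 under oil and 566, 1202 and 1378 under E2. The E2 and oil arrays did not overlap in either sex, and the lowest E2 value, in females, belonged to replicate 1. The group means were 228 ± 72.6 and 1163 ± 275 in males and 317 ± 55.0 and 1049 ± 427 in females (mean ± SD, n = 3). On the log2 scale the E2 minus oil difference of Gbp4 was 2.37 ± 0.31 (SE) in males and 1.64 ± 0.31 in females, and 2.00 ± 0.22 averaged over the sexes, a fold of 4.01. These values chose the family, so they are given as a description and without a test.

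Gbp11 gave almost the same picture. Its intensity was 251, 204 and 322 in oil-treated males and 1420.1, 968 and 1249.6 in E2-treated males. Females read 372, 467 and 309 under oil and 698, 1468 and 1617 under E2. Again all E2 arrays were above all oil arrays of their sex, with female E2 replicate 1 the lowest. The averaged difference was 1.94 ± 0.19 on the log2 scale, a fold of 3.83, with 2.23 ± 0.28 in males and 1.65 ± 0.28 in females.

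The probe set shared by the 6 genes of the chromosome 5 cluster followed these genes. It read 301, 334 and 404 in oil-treated males and 2247, 1299.8 and 1790.3 in E2-treated males. In females the values were 512, 585.5 and 339.9 under oil and 859.7, 2002 and 2294 under E2. Its arrays did not overlap between the treatments in either sex, and its averaged log2 difference was 2.04 ± 0.24, given without a test because it contains the symbols of both picked genes. This is the only measurement that includes Gbp6 and Gbp10, and a change of either of these genes cannot be separated from those of Gbp4 and Gbp11. The genes of this cluster share this probe set, and their sequences were not compared here. Probes labelled for one may also bind the RNA of another, and the part of this in the values was not tested.

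**Figure D1:**
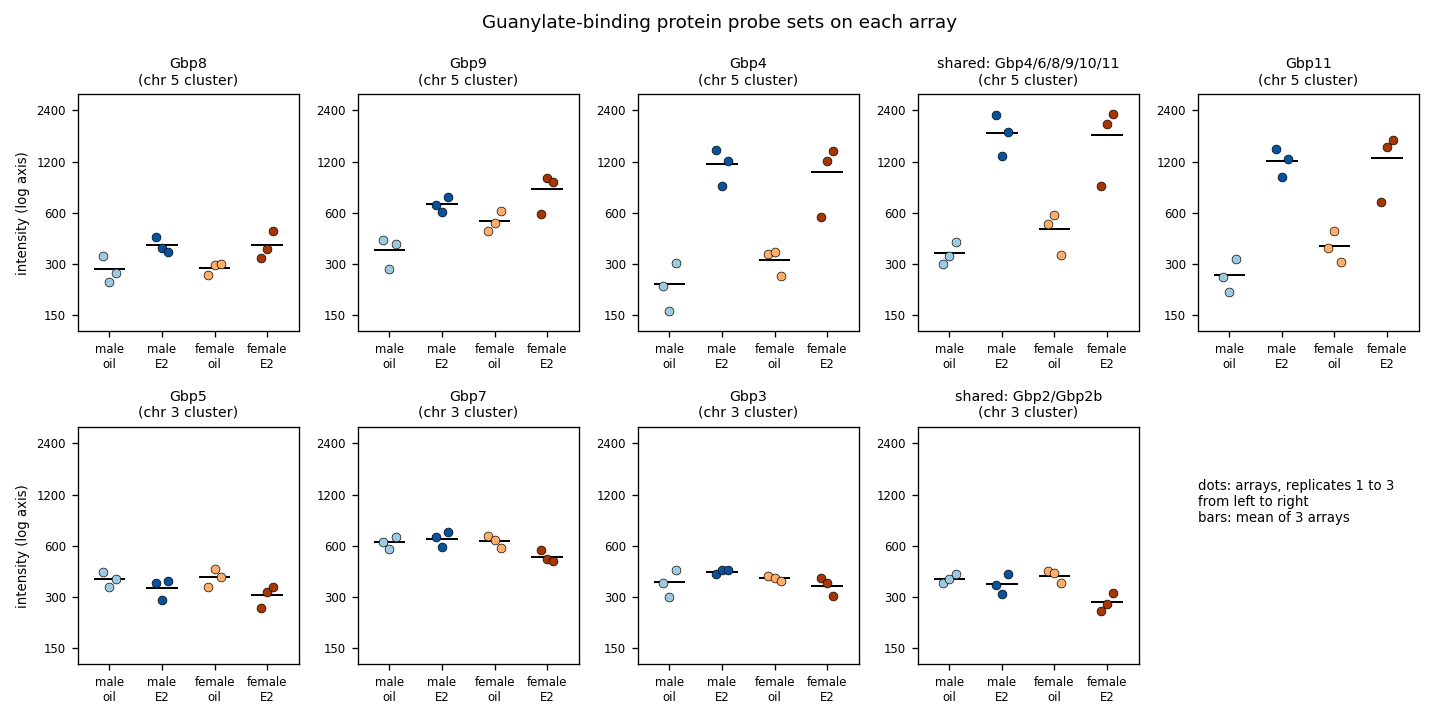
Intensity of each Gbp probe set on the 12 arrays, on a log axis, with 1 dot per array (replicates 1 to 3 from left to right) and a bar at the mean of each group of 3. In the upper row, of the chromosome 5 cluster, Gbp4 goes from 158 to 353 under oil to 566 to 1409 under E2, while in the lower row, of the chromosome 3 cluster, Gbp3 reads 298 to 434 under oil and 303 to 431 under E2.

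The neighbours of Gbp4 within the chromosome 5 cluster, Gbp9 and Gbp8, also rose with E2, by less. Neither had chosen the family. Their test is on the same contrast as the choice, however, and the values of a cluster with shared sequence are not independent of each other. Gbp9 read 416, 280.1 and 393 in oil-treated males and 666, 609.8 and 738 in E2-treated males, with no overlap. In females it read 467, 519.55 and 613 under oil and 592, 959 and 916 under E2, and here E2 replicate 1 lay below the highest oil array. The averaged difference of Gbp9 was 0.75 ± 0.13 on the log2 scale, a fold of 1.68 (limma, Benjamini-Hochberg adjusted p = 0.00358).

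In males alone Gbp9 rose by 0.90 ± 0.19 (limma, adjusted p = 0.0289), and in females its difference of 0.60 ± 0.19 did not pass (adjusted p = 0.0961). Without female E2 replicate 1 the female difference was 0.82 with an adjusted p of 0.0121. In the other 21 of 22 alternative settings it was not called. Over all 22 the difference was as low as 0.47 and the adjusted p as high as 0.246. The male call was close to the threshold. With a log2 difference of 0.73 to 0.97 it was lost without male oil replicate 2 (adjusted p = 0.137), oil replicate 3 (0.0595), or E2 replicates 1 (0.0956), 2 (0.0579) or 3 (0.143), and with no filter on dim genes (0.0686). The averaged call of Gbp9 held in all 21 alternative settings, with adjusted p up to 0.0132.

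Gbp8 rose in the average over the sexes, and its E2 arrays did not overlap with the oil arrays of the same sex. It read 335, 234 and 266 in oil-treated males and 432, 370.3 and 352 in E2-treated males. In females it read 256, 297 and 298 under oil and 325, 369 and 469 under E2. The averaged difference was 0.46 ± 0.11 on the log2 scale, a fold of 1.37 (limma, adjusted p = 0.0172). In the single sexes the differences were 0.48 ± 0.15 in males (adjusted p = 0.154) and 0.44 ± 0.15 in females (adjusted p = 0.129), neither past the threshold. The averaged call held in all 21 alternatives, with adjusted p up to 0.0489.

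No tested gene of the chromosome 3 cluster rose. Gbp5, which promotes assembly of the NLRP3 inflammasome, read 419.6, 344 and 379.5 in oil-treated males and 364, 287 and 369.6 in E2-treated males. In females Gbp5 read 344, 438 and 395 under oil and 257, 320.4 and 341 under E2. The arrays overlapped in males, and in females those of E2 lay below those of oil. Its averaged log2 difference was -0.26 ± 0.10 and did not pass the test (limma, adjusted p = 0.105; 95% interval -0.47 to -0.06 before adjustment).

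Gbp7, linked to oxidant production and autophagy in macrophages, read 635, 576 and 679 in oil-treated males and 672, 593 and 719 in E2-treated males. Its female arrays read 687, 647 and 580.0 under oil and 565, 499 and 487 under E2. As for Gbp5, the treatments overlapped in males and E2 lay below oil in females, a separation for which the share of all genes was not counted. The averaged difference was -0.12 ± 0.07 (limma, adjusted p = 0.356), with 0.07 ± 0.10 in males and -0.30 ± 0.10 in females (adjusted p = 0.130).

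Gbp3 showed the smallest averaged difference among the members. The 3 oil-treated males read 362, 298 and 434, and the E2-treated males 408, 431 and 429.5. Under oil the females read 399, 389.6 and 370.4, and under E2 they read 385, 362 and 303. The treatments overlapped in both sexes. The averaged log2 difference of Gbp3 was 0.04 ± 0.09 (limma, adjusted p = 0.834), with a 95% interval of -0.15 to 0.23.

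The probe set of Gbp2 and Gbp2b was lower under E2 in females. Gbp2 is among the members best known for coating pathogen vacuoles. The probe set read 360.5, 381 and 410.4 in oil-treated males and 353, 311 and 408 in E2-treated males, which overlap. Female arrays read 425, 414 and 361 under oil and 248, 274 and 315 under E2, with all E2 arrays below all oil arrays. Gbp2b alone, on its own probe set, was dim, 52.9 to 69.6 over the 12 arrays, and was not tested.

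This shared probe set was tested in a fit of the 11692 probe sets with any gene symbol that passed the same kind of filter. It fell by 0.32 ± 0.08 averaged over the sexes (limma, adjusted p = 0.0381) and by 0.52 ± 0.12 in females (adjusted p = 0.0353), while the male difference of -0.11 ± 0.12 did not pass (adjusted p = 0.726). Of all probe sets in that fit, 5.41% were called lower in the average and 2.32% in females. Both calls are close to the threshold. The averaged call was lost with no filter (adjusted p = 0.0831), with a filter at the 25th percentile (0.0536), with median centring (0.0663) and with a replicate block (0.0530). It was also lost without each single array other than male E2 replicate 3, female oil replicate 3 and female E2 replicate 3, at adjusted p of 0.0502 to 0.0939. The female call was lost with no filter (0.0817), with the filter at the 25th percentile (0.0518), with array weights (0.0746) and with the 2 female groups fitted alone (0.141). It was further lost without male oil replicate 2 (0.0551), male E2 replicate 1 (0.0540), female oil replicates 1 (0.110), 2 (0.139) or 3 (0.0604), and female E2 replicates 1 (0.0636) or 2 (0.0801).

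Of the 5 members with their own probe set on which the family was not picked, 2 were called in the averaged contrast, both higher, and 3 had an unadjusted p under 0.05. Over all 9967 genes 8.9% were called in that contrast, 3.12% higher and 5.78% lower. In males 1 of the 5, Gbp9, was called, where 1.43% of genes were called and 0.572% were called higher. In females 0 of the 5 were called by limma, against 3.56% of genes, and 4 of the 5 had an unadjusted p under 0.05. The count in females was also 0 with trended and robust eBayes and with array weights. Because the family was chosen on this contrast, nothing is read from these counts. Among all genes tested, 2.32% had every E2 array above every oil array in both sexes, as Gbp4, Gbp11 and Gbp8 had. The share of genes separated in only 1 sex was not counted. Nothing is read from that separation for Gbp9 in males, or for Gbp5, Gbp7 and the Gbp2 and Gbp2b probe set in females.

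The genes on either side of the clusters gave a measure of what lay around them. On each side of a cluster these were the 3 nearest genes with a probe set of their own. The one nearest to Gbp8, before the chromosome 5 cluster, was Abcg3, an ABC transporter gene. Abcg3 read 573, 611 and 602 in oil-treated males and 1054, 855 and 943 in E2-treated males. In females it read 571, 649.95 and 452 under oil and 628, 948 and 1063 under E2, with E2 replicate 1 below the highest oil array. It rose by 0.65 ± 0.12 in the average (limma, adjusted p = 0.00567), a call that held in all 21 alternatives, with adjusted p up to 0.0173. The next genes outward, Zfp951 and Thoc2l, differed by 0.00 ± 0.08 and 0.01 ± 0.07 on the log2 scale and were not called. On the other side, beyond Gbp11, Lrrc8b (0.21 ± 0.10, adjusted p = 0.227), Lrrc8c (-0.14 ± 0.10, adjusted p = 0.408) and Lrrc8d (-0.11 ± 0.06, adjusted p = 0.312), subunits of volume-regulated anion channels, were not called.

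Around the chromosome 3 cluster no measured neighbour was called in the average. Pdlim5 differed by -0.14 ± 0.08 (limma, adjusted p = 0.323), Kyat3 by 0.09 ± 0.11 (0.680), Gtf2b by -0.17 ± 0.08 (0.219) and Pkn2 by -0.03 ± 0.07 (0.812). Unc5c and Bmpr1b were dim. The called increases on chromosome 5 were those of Abcg3, Gbp8 and Gbp9, which lie before Gbp4 in this order. No Gbp gene after Gbp4 could be called. Gbp10 and Gbp6 had no probe set of their own, and Gbp11, higher by 1.94, was not tested because it chose the family.

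**Figure D2:**
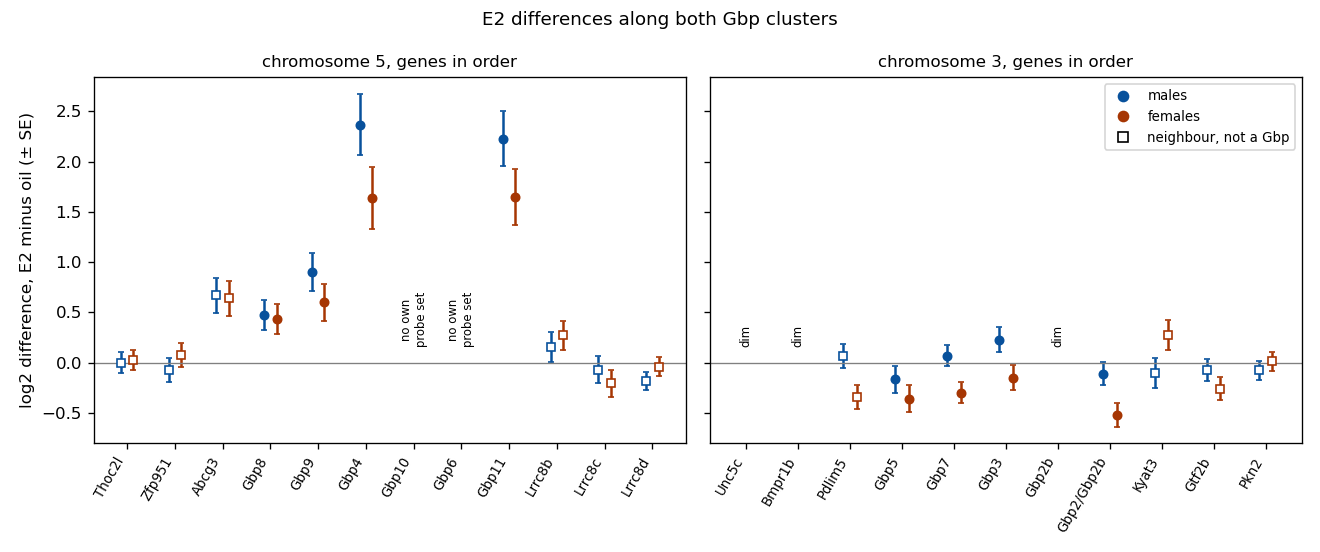
E2 minus oil differences (log2, ± SE, 3 arrays per group) in males and females for the genes of both Gbp clusters and the 3 measured genes on each side, in gene order. Gbp4 (2.37 in males, 1.64 in females) and Gbp11 (2.23 and 1.65) stand highest on chromosome 5, with Abcg3, Gbp8 and Gbp9 between 0.44 and 0.90, and all Gbp values on chromosome 3 lie between -0.52 and 0.23 (Gbp2/Gbp2b from the fit of probe sets).

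The difference of the responses between the sexes was tested for all 7 members with their own probe set, since this contrast was not used in the choice. The female response of Gbp4 was smaller than the male response by 0.73 ± 0.43 on the log2 scale (limma, adjusted p = 0.954), with a 95% interval of -1.66 to 0.20. For Gbp11 the difference was -0.58 ± 0.39 (adjusted p = 0.954), and for Gbp9 -0.30 ± 0.26 (adjusted p = 0.954). Among the chromosome 3 genes it was -0.37 ± 0.15 for Gbp7 (adjusted p = 0.907; unadjusted p = 0.0251), -0.38 ± 0.18 for Gbp3 (adjusted p = 0.929) and -0.19 ± 0.19 for Gbp5 (adjusted p = 0.954). Gbp8 differed by -0.04 ± 0.21 (adjusted p = 0.989). All 7 estimates were below 0, meaning a lower response in females, where 59.5% of all genes were below 0 with a median of -0.04. The estimates of the chromosome 5 members are not independent of each other. Of the 7, 0 were called, against 0.01% of all genes. Among the 7, 1 had an unadjusted p under 0.05; 0 were called and 1 had such a p with trended and robust eBayes, and 0 and 2 with array weights. Without female E2 replicate 1 the difference was -0.34 for Gbp4, -0.20 for Gbp11 and -0.08 for Gbp9, and that of Gbp8 turned to 0.08. Its sign also turned without male oil replicate 2 (0.07) and male E2 replicate 1 (0.05).

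The sexes were also compared in level, averaged over the treatments. Gbp9 was the member farthest apart, 0.41 ± 0.13 higher in females on the log2 scale, with an unadjusted p of 0.00730 and an adjusted p of 0.417 (limma). Gbp11 was 0.27 ± 0.19 higher in females (adjusted p = 0.736) and Gbp4 0.14 ± 0.22 higher (adjusted p = 0.892). Gbp7 was lower in females by 0.17 ± 0.07, with a log2 difference of -0.17 (adjusted p = 0.559). Of the 7 members 0 were called by limma, against 0.0401% of all genes, and 2 had an unadjusted p under 0.05. With array weights 0 were called and 3 had such a p.

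The arrays of one E2 group differed among themselves, in both clusters. Female E2 replicate 1 was the lowest of its group in Gbp4, Gbp11, the 6-gene probe set, Gbp9, Gbp8, Gbp5 and the Gbp2 and Gbp2b probe set, and the highest in Gbp7 and Gbp3. Male E2 replicate 2 was the lowest of its group in all of these except Gbp8, where replicate 3 was lowest, and Gbp3, where replicate 2 was the highest. Without female E2 replicate 1 the female difference was 2.03 for Gbp4, 2.03 for Gbp11 and 2.20 for the 6-gene probe set. These were the highest values over all alternative settings, and the lowest were 1.39, 1.42 and 1.49.

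Likeness of other genes to Gbp4 and Gbp11 was measured as the root mean square difference of 12 log2 values after each gene's mean was subtracted, among the 9967 genes tested. Gbp4 and Gbp11 were each other's closest gene, at 0.12. Next came, for both, Chad, a matrix protein that binds integrins (0.35 from Gbp4 and 0.30 from Gbp11), Ern1, the endoplasmic reticulum stress sensor IRE1 (0.41 and 0.35), Arntl, the clock factor BMAL1 (0.42 and 0.38), and Sema4a, a semaphorin (0.49 and 0.45). The 12 arrays share their treatment groups, so a gene with a like E2 difference scores as close by that alone, and sharing the order of arrays within a group is part of what the measure selects. No other Gbp was among the 5 closest.

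**Figure D3:**
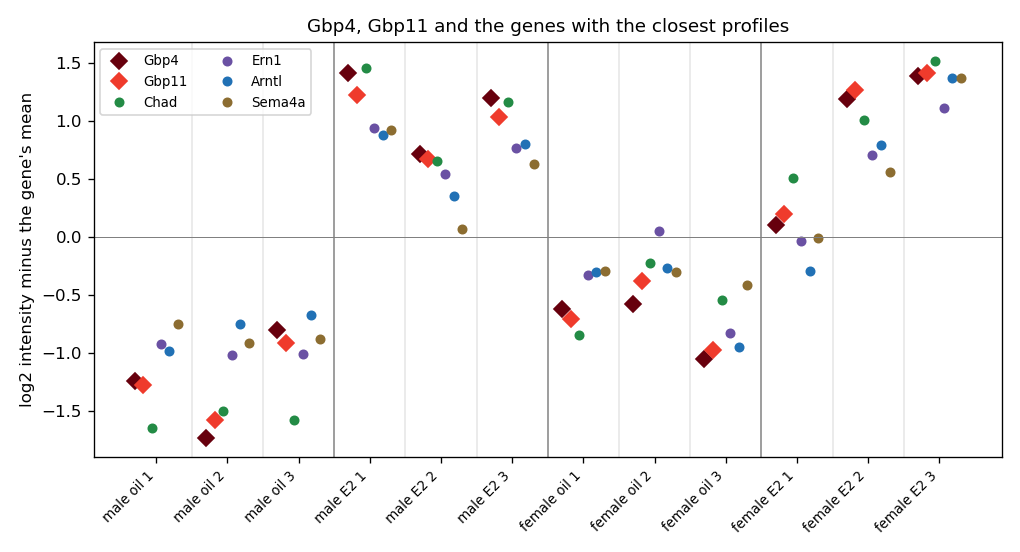
Log2 intensity of Gbp4, Gbp11 and the 4 genes with the closest profiles on each of the 12 arrays, minus each gene's own mean. Gbp4 and Gbp11, 0.12 apart over the arrays, are below 0 on all 6 oil arrays and above 0 on all 6 E2 arrays, nearest to 0 on female E2 replicate 1.

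Other genes of the interferon system and of Gbp function were read from lists. Over 8 lists, of related GTPases, interferon signalling, interferon targets, inflammasome and cell death genes, ATG conjugation and CaaX lipidation, 94 genes were tested in the averaged contrast. Of these 4 were called higher and 6 lower, together 10.6%, beside 8.9% of all genes. Their median log2 difference was -0.04, and that of all genes -0.01. The number called was 5 without male oil replicate 2 and 6 with no filter.

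Among other interferon-inducible GTPases, 4 were tested, 0 rose and 1 fell. Irgm1, which guards host membranes and is known to be needed for normal HSC function, fell by 0.53 ± 0.11 in the average (limma, adjusted p = 0.00813), and by 0.87 ± 0.15 in females (adjusted p = 0.00850). Its male difference was -0.20 ± 0.15 (adjusted p = 0.587). Gm12250, Gm4951 and Iigp1 differed by 0.13, 0.01 and 0.01 and did not pass. On probe sets shared by several genes, Tgtp1 and Tgtp2 fell by 0.23 ± 0.06 on each of their probe sets (adjusted p = 0.0459 and 0.0455), and their calls were close to the threshold. Irgm2 and Igtp (-0.16 ± 0.08, adjusted p = 0.226) and the pair Ifi47 and Olfr56 (0.16 ± 0.05, adjusted p = 0.0711) did not pass.

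None of the 11 tested genes of interferon gamma signalling was called by limma in the average. The receptor chain Ifngr1 differed by -0.09 ± 0.07 (adjusted p = 0.449) and Ifngr2 by -0.38 ± 0.12 (adjusted p = 0.0563). Irf1, the transcription factor that drives Gbp genes, differed by -0.22 ± 0.06 (adjusted p = 0.0538), the kinase Jak2 by -0.20 ± 0.07 (0.0871) and the inhibitor Pias1 by -0.20 ± 0.09 (0.169). Ifng itself was dim, at no more than 90.4 on any array. In type I interferon signalling 1 of 8 fell and 0 rose. Ifnar1, a chain of the type I receptor, fell by 0.25 ± 0.06 (adjusted p = 0.0224). Ifnar2 (-0.17 ± 0.07, adjusted p = 0.173), Stat2 (-0.14 ± 0.10, adjusted p = 0.428) and Irf9 (-0.11 ± 0.08, adjusted p = 0.452) did not pass.

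Of 15 tested interferon gamma targets, mostly of antigen presentation, 1 rose and 2 fell. Tap2, a chain of the peptide transporter for MHC class I, rose by 0.56 ± 0.13 (limma, adjusted p = 0.0207). The MHC class II chain H2-Aa fell by 0.71 ± 0.12 (adjusted p = 0.00338) and the class II invariant chain Cd74 by 0.60 ± 0.15 (adjusted p = 0.0291). Psme2, a proteasome activator subunit, differed by 0.23 ± 0.07 (adjusted p = 0.0539) and did not pass.

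Among 29 type I interferon targets 1 rose and 0 fell in the average, where differences of opposite sign in the sexes cancel. Ifit2 rose by 0.26 ± 0.08 (limma, adjusted p = 0.0485), whereas Dtx3l (-0.16 ± 0.05, adjusted p = 0.0660), Oas1a (0.22 ± 0.08, adjusted p = 0.107) and Cmpk2 (0.19 ± 0.07, adjusted p = 0.127) did not pass. In males 25 of the 29 estimates were above 0, with a median of 0.15 on the log2 scale, where 49.985% of all genes were above 0. In females 27 of 29 were below 0, with a median of -0.19, where 55.8% of all genes were below 0 and their median was -0.02. Single calls were few. Cmpk2 rose by 0.51 ± 0.11 in males (adjusted p = 0.0301), and in females Dtx3l fell by 0.36 ± 0.07 (adjusted p = 0.0168) and Ddx58 fell by 0.41 ± 0.09 (adjusted p = 0.0278). For the difference of the responses all 29 estimates were below 0, where 59.5% of all genes were below 0. Of the 29, 0 were called by limma (lowest adjusted p = 0.604) and 15 had an unadjusted p under 0.05. The share of all genes with such a p was not counted. Also below 0 were 8 of 8 estimates in type I interferon signalling, 14 of 15 interferon gamma targets and 4 of 4 other GTPases. The counts were 10 of 11 in interferon gamma signalling, 8 of 9 in inflammasome and cell death, 11 of 13 in ATG conjugation and 2 of 5 in CaaX lipidation. Genes of a list were read on the same arrays, so their estimates are not independent of each other. Nothing is read from these counts of signs.

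Of 9 inflammasome and cell death genes, 2 rose and 0 fell. Pycard, the adaptor ASC, rose by 0.36 ± 0.07 (limma, adjusted p = 0.00609), and Mlkl, the executor of necroptosis, rose by 0.36 ± 0.08 (adjusted p = 0.0153). Casp8 (0.12 ± 0.07, adjusted p = 0.324) and Ripk3 (0.11 ± 0.07, adjusted p = 0.337), which act upstream in cell death, did not pass. Of 13 genes of ATG conjugation, which directs the GTPases to vacuoles, 0 rose and 2 fell. Map1lc3b fell by 0.32 ± 0.07 (adjusted p = 0.0151) and Gabarapl2 by 0.39 ± 0.09 (adjusted p = 0.0212), while Map1lc3a (-0.30 ± 0.11, adjusted p = 0.0979) and Sqstm1 (-0.25 ± 0.10, adjusted p = 0.120) did not pass. For CaaX lipidation, 0 of 5 genes were called by limma, with Rce1 at -0.14 ± 0.07 (adjusted p = 0.252), Pggt1b at 0.12 ± 0.07 (0.369), Fnta at -0.07 ± 0.09 (0.698) and Icmt at -0.05 ± 0.07 (0.745). The calls of Irgm1, H2-Aa, Pycard, Mlkl and Map1lc3b held in all 21 alternatives. Of the 21, the call of Tap2 held in 18 (adjusted p up to 0.0537), Gabarapl2 in 16 (0.152), Ifnar1 in 14 (0.0702), Cd74 in 12 (0.0699) and Ifit2 in only 5 (0.122). Of 3 estrogen receptor genes measured, only Esr1 passed the filter, and it differed by -0.34 ± 0.12 (adjusted p = 0.0965).

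**Figure D4:**
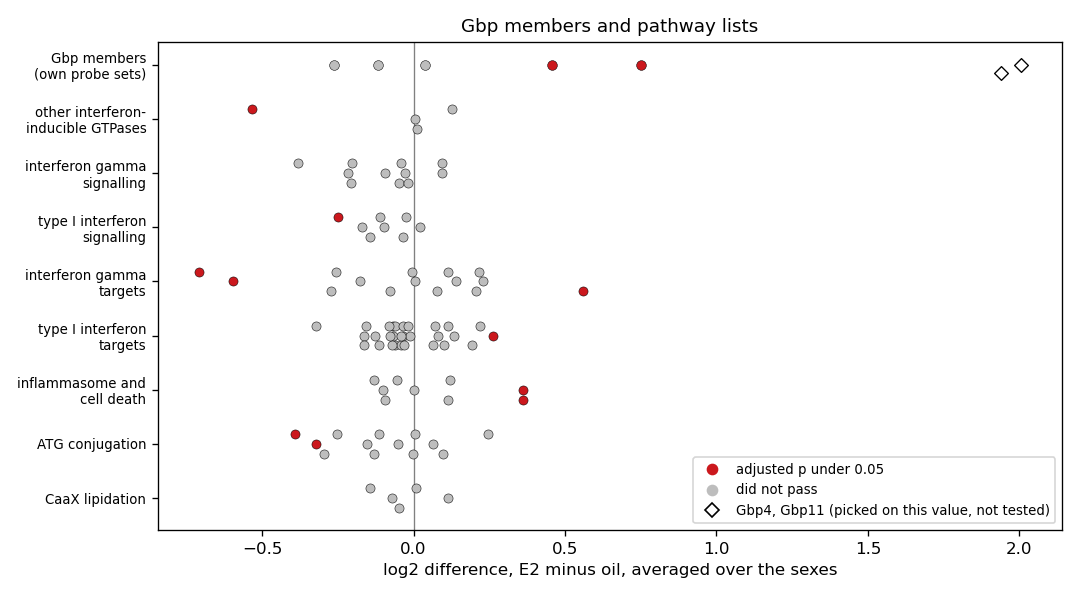
Averaged E2 minus oil log2 differences of the 7 Gbp members with their own probe set and of 94 genes in 8 lists, 1 dot per gene. Gbp4 (2.00) and Gbp11 (1.94) are drawn as open diamonds because they chose the family, and the listed genes lie between -0.71 (H2-Aa) and 0.56 (Tap2).

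Markers of other blood cells were read beside the Gbp values. Of 12 monocyte and macrophage markers, 11 were measured and 3 passed the filter. Itgam, the CD11b integrin chain, read 79.3 to 199.75 on the oil arrays and 589 to 1856 on the E2 arrays. Its mean passed the filter of 182 only through the E2 arrays, so its averaged difference of 2.88 ± 0.26 is given without a test. Itgam shared with Gbp4 the lowest array of both E2 groups. Abcg3, Tap2 and Chad had the same lowest arrays, while Mlkl and Ifit2 did not. Lyz2 (-0.33 ± 0.10, adjusted p = 0.0652) and Cd68 (0.12 ± 0.13, adjusted p = 0.637) were not called by limma. The defining markers Csf1r, at 59.2 to 104, and Adgre1, at 34.4 to 51.9, were dim on all arrays. The summed intensity of the 11 markers was 2720 to 3175 in oil-treated and 3205 to 4019 in E2-treated males, and 2900 to 3391 in oil-treated and 3180 to 4613 in E2-treated females. Without Itgam the sums of the other 10 were 2640 to 3012 and 2507 to 2955 in males, and 2745 to 3191 and 2410 to 2758 in females.

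Of the 8 HSC markers, Procr fell by 0.47 ± 0.06 (limma, adjusted p = 0.000537) and Kit by 0.32 ± 0.05 (adjusted p = 0.00230), and 0 rose. In this averaged contrast 3.12% of all genes were called higher and 5.78% lower. Of 6 tested megakaryocyte markers 4 fell, and 1 rose. Pf4 fell by 1.40 ± 0.14 (adjusted p = 6.59e-05), Plek fell by 1.33 ± 0.11 (2.08e-05), Gp5 fell by 0.77 ± 0.11 (0.000947) and Itga2b fell by 0.44 ± 0.08 (0.00435), and Gp9 rose by 0.51 ± 0.12 (adjusted p = 0.0187). Of 11 T and NK cell markers 2 were tested. Nkg7 fell by 1.67 ± 0.19 (limma, adjusted p = 0.000182), and Cd3e, at -0.01 ± 0.07, was not called (adjusted p = 0.952). Neutrophil markers varied widely between arrays of a group, with summed intensities of 5405 to 21611, and 1 of 8 tested, Prtn3, was called, and fell by 0.29 ± 0.08 (adjusted p = 0.0315). Of the few tested markers of other lists, the B cell gene Cd79b fell by 0.41 ± 0.10 (adjusted p = 0.0199) and the dendritic and progenitor gene Flt3 fell by 1.10 ± 0.11 (adjusted p = 8.17e-05). The other tested dendritic markers, Bst2 (0.08 ± 0.12, adjusted p = 0.726 by limma) and Cd209a (0.09 ± 0.09, adjusted p = 0.595), were not called. On the E2 arrays Flt3 read 113 to 190, Nkg7 112 to 220 and Plek 135 to 244. These 3 genes passed the filter of 182 mainly through their oil arrays, and nothing is read from their calls. The erythroid gene Tfrc rose by 0.36 ± 0.10 (adjusted p = 0.0491), and 0 of 2 endothelial markers were called by limma. The stromal gene Col1a2 read 126 to 175 on the oil arrays and 191 to 470 on the E2 arrays. It passed the filter only through the E2 arrays, so its difference of 0.90 ± 0.18 is given without a test. The other stromal marker past the filter, Col1a1, differed by 0.14 ± 0.08 and was not called (limma, adjusted p = 0.315). The call of Tfrc held in 7 of 21 alternatives (adjusted p up to 0.125) and that of Prtn3 in 11 (up to 0.0842). The calls of Cd79b and Gp9 were each lost in 1 (0.0574 and 0.0505). The part of other cells in the Gbp values was not tested.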

How the data were processed

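The authors deposited 1 linear intensity per probe set for each of 12 Affymetrix Mouse Gene 1.0 ST arrays. Per the labels' protocols, the small amounts of RNA went through NuGEN amplification (Ovation Pico WTA V2) and Encore Biotin labelling. No label or header used here names the software or says how the authors summarised, background-corrected or normalized these intensities.

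Symbols came from the platform annotation, which can be old, and 21689 of 21780 probe sets with 1 symbol matched RefSeq by Entrez identifier (assembly GRCm38.p6). The brightest probe set stood for each of 19935 genes. Log2 of the intensity plus 1 was fitted with limma 3.58.1 in R 4.3.3, with 1 mean per group over all 12 arrays (8 residual and 5.38 prior degrees of freedom), for genes with a mean above the median, 7.52 on the log2 scale. P-values were adjusted by Benjamini-Hochberg over all 9967 genes within a contrast, and calls needed an adjusted p under 0.05. All tests were two-sided. Shared probe sets entered a fit of 11692 probe sets, added after the data were seen. The labels name separate mice for the replicates but do not tie each array to 1 mouse, so the p-values measure the spread between these samples. Each promoter was searched over the 250 bases before its start. The fit was tested on simulated data. Figures were drawn with Python 3.11.15 and matplotlib 3.10.9.

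The members, the lists of pathway and marker genes and the tests were chosen with earlier results of these data known. The text names all members and shared probe sets, up to 4 genes of smallest p per pathway list, Ifngr1, Ifngr2, Irf1 and Esr1, the 3 genes on each side of both clusters, the 5 genes closest in profile to Gbp4 and to Gbp11, and markers that were called or define a list. Ddx58, Cd3e, Bst2, Cd209a, Col1a1 and the HSC genes whose levels are given were added to the names with their values in view. The counts of pathway lists within each sex and for the difference of the responses were added in the same way.

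Alternative settings replaced the scaling (quantile normalization or median centring), the offset (16), the filter (none, or the 25th percentile) and the probe set of a gene (their mean). Others changed the fit (trended and robust eBayes, array weights, only the 2 groups compared, a replicate block) or left out 1 array at a time.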

Additional observations from a re-analysis of the deposited data

How the results depend on the processing

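Over 1102 recalculated values, 1048 kept their direction and their side of the threshold or moved by less than the spread, 31 lost a call, 2 gained one, 8 changed sign and 13 moved. The 2 members called in the averaged E2 contrast, Gbp8 and Gbp9, were called under all 21 alternatives, and the counts of 0 for the difference of responses and for the sexes did not change. For E2 in males the members called were 0 with no filter and 2 with array weights, which added Gbp8, and 0 to 1 with single arrays left out. In females they were 0 to 1 with single arrays left out. The pathway genes called were 6 with no filter, which doubles the genes tested, and 5 to 13 with single arrays left out. The sign changed only with single arrays left out, where the log2 difference ranged from -0.029 to 0.107 for Gbp3 in the averaged E2 contrast, from -0.115 to 0.0037 for Gbp5 and from -0.053 to 0.090 for Gbp8 between the sexes, and from -0.185 to 0.078 for Gbp8 between the responses. The causes were not tested. Scaling moved the median of all genes by less than 0.1.

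Same-numbered arrays did not deviate together, with correlations of 0.07, -0.14 and 0.04 in males and 0.20, 0.17 and -0.18 in females, so the numbers were not taken as pairs. With the replicate block 2 members were called in the averaged contrast, 1 in males and 0 in females, and 9 pathway genes were called. The block ended both calls of the Gbp2 and Gbp2b probe set (adjusted p = 0.0530 and 0.0566 by limma) and no other member's call.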
